A study of Mus musculus with 10 samples.

Results

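Genes for 10 proteins of lipid droplet coating, growth and budding were followed in regenerating mouse liver. They are the coat proteins Plin2, Plin3, Plin4 and Plin5, the droplet fusion proteins Cidea, Cideb and Cidec, the lipase inhibitors G0s2 and Hilpda, and the droplet budding protein Fitm2. The 10 were listed by name, by a rule that uses no measured value, though earlier results of these data were known, and all had a row in each of 2 count tables of 55487 genes. A lipid droplet is a store of triglyceride and sterol ester wrapped in a single layer of phospholipid. It buds from the endoplasmic reticulum, is coated by perilipins that limit access of lipases, grows by synthesis of lipid on its surface or by fusion, and shrinks when the lipase Pnpla2 (ATGL) hydrolyses its triglyceride. After partial hepatectomy (PHx), the surgical removal of most of the liver, hepatocytes of the remnant fill transiently with such droplets while they prepare to divide.

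All mice were C57BL/6J, 8 weeks old, labelled male and operated by PHx. In the diet experiment 3 mice ate a high-fat diet (HFD) and 3 a regular chow for 7 days before surgery, and liver was taken 40 hours after it. In the inhibitor experiment SSO at 40 mg/kg, or its solvent as vehicle, was given 1 day before surgery and liver was taken at 48 hours. The labels name 8 mice per group there, of which 4 libraries per group are in the table. SSO is not spelled out; the letters are widely used for sulfosuccinimidyl oleate, a blocker of fatty acid uptake by CD36. Which solvent was used and by which route is not stated in the labels. The diet was the only difference named between chow and HFD, and neither experiment holds liver without PHx, so every value describes liver after surgery.

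Depth was 31.9 to 39.9 M counts per library for diet and 25.2 to 30.4 M for the inhibitor. The vehicle libraries were spread widely: their scores on the first principal component were -97.3 and -92.8 for vehicle 1 and 3, -2.89 for vehicle 4 and 52.5 for vehicle 2, while SSO scored 31.8 to 40.5. Mitochondrially encoded transcripts took 4.99% to 22.5% of counts in vehicle and 15.2% to 17.6% in SSO. All 8 inhibitor libraries held Xist, at 698 to 1772 CPM, and no Ddx3y, which goes against the label male; the diet libraries held Ddx3y at 55.0 to 76.3 CPM. The tissue label fitted the summed level of 6 hepatocyte genes, 55843 to 80216 CPM in chow, 62899 to 69328 in HFD, 64557 to 103790 in vehicle and 69080 to 88933 in SSO. Levels are in CPM, counts scaled to the same library size after correction by trimmed means (TMM).

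None of the 10 genes passed the test in either experiment. Of them, 9 had enough counts to be tested in each, and Cidea was left out by the filter on low counts. A gene was called when its Benjamini-Hochberg adjusted p in edgeR's quasi-likelihood test, over all tested genes, was under 0.05. HFD against chow called 2.32% of 15589 tested genes and 0 of the 9, and SSO against vehicle called 0.45% of 15788 and 0 of the 9. The groups did not overlap for 2 members in the diet experiment, Hilpda and Cideb, as for 21.9% of tested genes, and for 1 in the inhibitor experiment, Plin2, as for 11.8%; none lay wholly higher in SSO, as 6.14% of genes did. At an unadjusted p under 0.05 stood Plin2 and Hilpda in the diet experiment, where 15% of genes did, and Plin2 in the inhibitor experiment, where 20.5% did. DESeq2 called Plin2 and no other member in each experiment, where it called 5.94% of all genes for HFD and 7.71% for SSO, and limma-voom called none. The median log2 fold change of the 9 was -0.03 for HFD beside -0.02 over all tested genes, and -0.11 for SSO beside -0.04. The plot of every library's level shows how the members were spread.

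**Figure D1:**
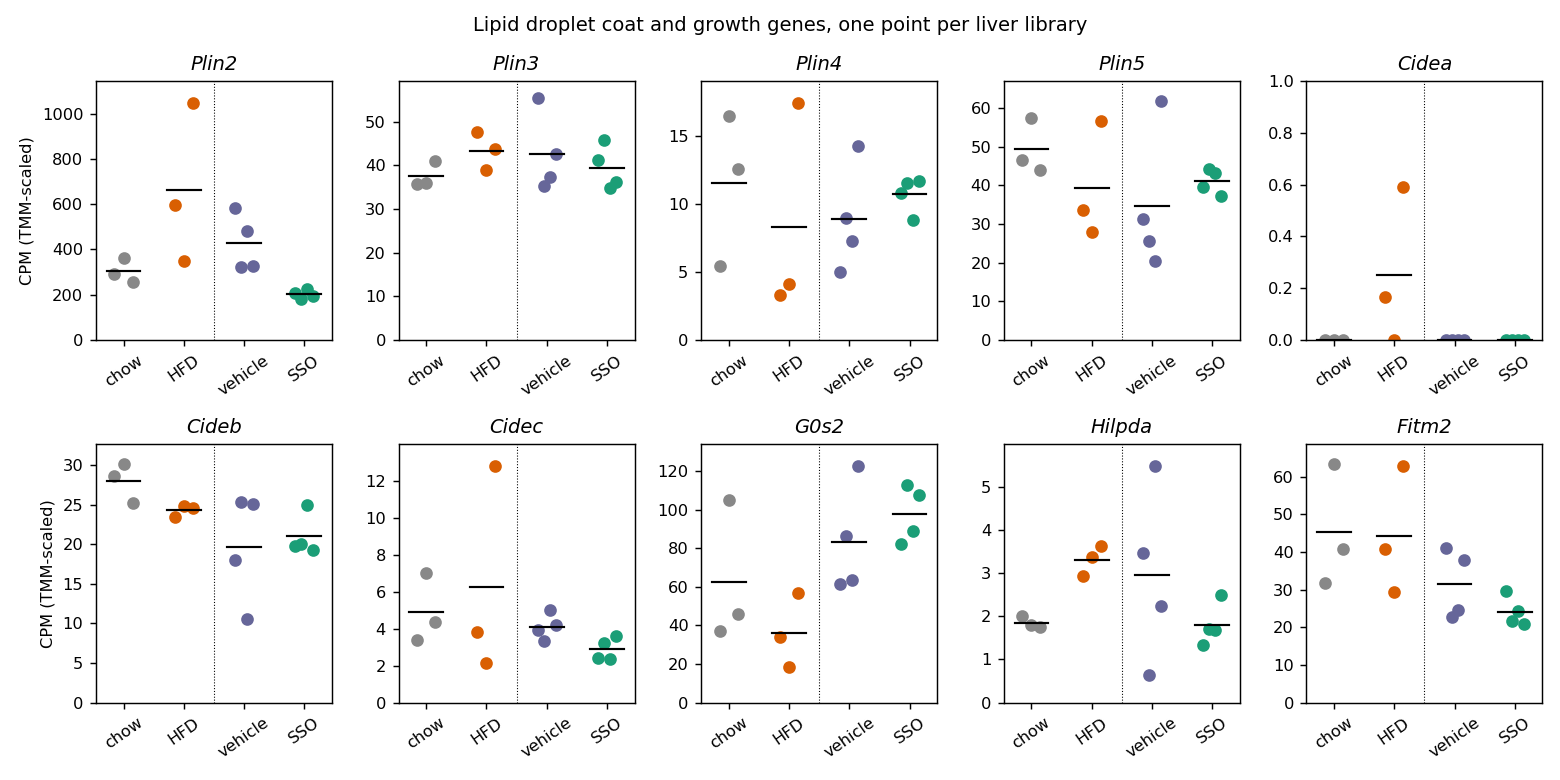
CPM of the 10 genes in each library (points) with the mean of the group (line); the dotted line parts the diet experiment, 3 libraries per group, from the inhibitor experiment, 4 per group. Plin2 in SSO lies wholly below vehicle and Hilpda in HFD wholly above chow, while most other groups overlap.

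Plin2, the main droplet coat protein of hepatocytes, was higher in mean in HFD than in chow and lower in SSO than in vehicle. The gene (ENSMUSG00000028494) lies at chr4:86648386-86670060 on the minus strand. Its level was 293, 362 and 256 CPM in chow 1 to 3 and 597, 349 and 1047 CPM in HFD 1 to 3. HFD 3 and HFD 1 lay above all chow libraries and HFD 2 lay within their range, so the groups overlapped. The mean of 664 ± 354 CPM (SD, n = 3) in HFD was 2.19 times the 304 ± 53.9 CPM (SD, n = 3) in chow. The log2 fold change was 1.13 ± 0.37 (SE; 95% interval 0.28 to 1.98), with an adjusted p of 0.202 in edgeR. Without HFD 3 it was 0.64, and DESeq2 gave an adjusted p of 0.0152.

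In the inhibitor experiment Plin2 stood at 584, 321, 481 and 327 CPM in vehicle 1 to 4 and at 207, 180, 226 and 193 CPM in SSO 1 to 4. Every SSO library lay below every vehicle library, as 5.62% of tested genes did, and vehicle 1 and 3 were the highest. The vehicle mean of 428 ± 128 CPM (SD, n = 4) was 2.12 times the SSO mean of 202 ± 19.5 CPM (SD, n = 4). The log2 fold change was -1.09 ± 0.24 (SE; 95% interval -1.61 to -0.57), the 148th smallest p of the 15788 tested genes, and its adjusted p in edgeR was 0.0866. The adjusted p ran from 4.16e-04 to 0.285 over the alternatives. Plin2 was called by DESeq2 (4.16e-04), without the filter on low counts (0.0333), without vehicle 2 (0.00827) and without vehicle 4 (0.0365), fits that called 7.71%, 0.766%, 16.2% and 2.24% of all tested genes. It was not called without vehicle 1 (0.197), without vehicle 3 (0.161) or without any 1 SSO library (0.202 to 0.285). The fits without vehicle 1 and without any 1 SSO library called 0 of all tested genes, so the loss there was not particular to Plin2. The fit without vehicle 3 called 0.0991% of them. In these fits the unadjusted p of Plin2 in edgeR was 0.00169 to 0.00417. With vehicle 1 and 3 both left out, the log2 fold change was -0.68 with an adjusted p of 0.0994 in edgeR.

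Markers of several other cell types, though not of all, moved with Plin2 across the vehicle libraries. A list of 7 markers of monocyte-derived macrophages (Ly6c2, Ccr2, Lyz2, Cd68, Spp1, Gpnmb and Trem2) summed to 600, 75.1, 693 and 121 CPM in vehicle 1 to 4 and to 52.9 to 68.9 CPM in SSO. Lyz2, the lysozyme of myeloid cells, was at 189, 23.0, 189 and 41.6 CPM in vehicle and at most 11.3 CPM in SSO, and Gpnmb, a marker of lipid-laden macrophages, at 124, 0, 121 and 13.2 CPM in vehicle. Vehicle 1 and 3 were highest both for Plin2 and for these markers. All 7 markers had a negative log2 fold change, as 8368 of all 15788 tested genes did. Their median was -3.58, beside -0.04 over all tested genes. In edgeR 0 of 7 were called, while 6 of 7 had an unadjusted p under 0.05, as 20.5% of all tested genes did. Wholly lower in SSO lay 1 of 7, as 5.62% of tested genes did. Vehicle 1 and 3 also held the most of 5 other lists among the vehicle libraries. Kupffer cell markers summed to 391 and 299 CPM there, 93.3 and 82.0 CPM in vehicle 2 and 4 and 161 to 283 CPM in SSO. Neutrophil markers summed to 34.1 and 55.6 CPM, 3.90 and 4.25 CPM and 7.81 to 14.3 CPM, in the same order. Stellate cell markers summed to 314 and 299.9 CPM, 143 and 191 CPM and 180 to 270 CPM. Endothelial and cholangiocyte markers were likewise highest in vehicle 1 and 3 among the vehicle libraries. Other lists went the other way and were lowest in vehicle 1 and 3. Hepatocyte markers summed to 76409 and 64557 CPM there and to 85278 and 103790 CPM in vehicle 2 and 4. Erythroid markers summed to 47.5 and 67.9 CPM there and to 180 and 87.0 CPM in vehicle 2 and 4. Fat cell markers summed to 3.01 and 3.29 CPM there and to 9.30 and 17.6 CPM in vehicle 2 and 4. In the diet experiment the macrophage list had a sum of 72.3 to 97.8 CPM with chow and of 118 to 127 CPM with HFD, with 0 of 7 called. Of its 7 genes Spp1, which bile duct cells express too, was the 1 without overlap, with 39.6 to 63.9 CPM (chow) and 82.5 to 87.4 CPM (HFD), and Gpnmb had a negative log2 fold change. The part of these cells in the level of Plin2 was not tested in either experiment. In bulk liver, fewer cells of a type and less RNA per cell cannot be told apart.

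**Figure D2:**
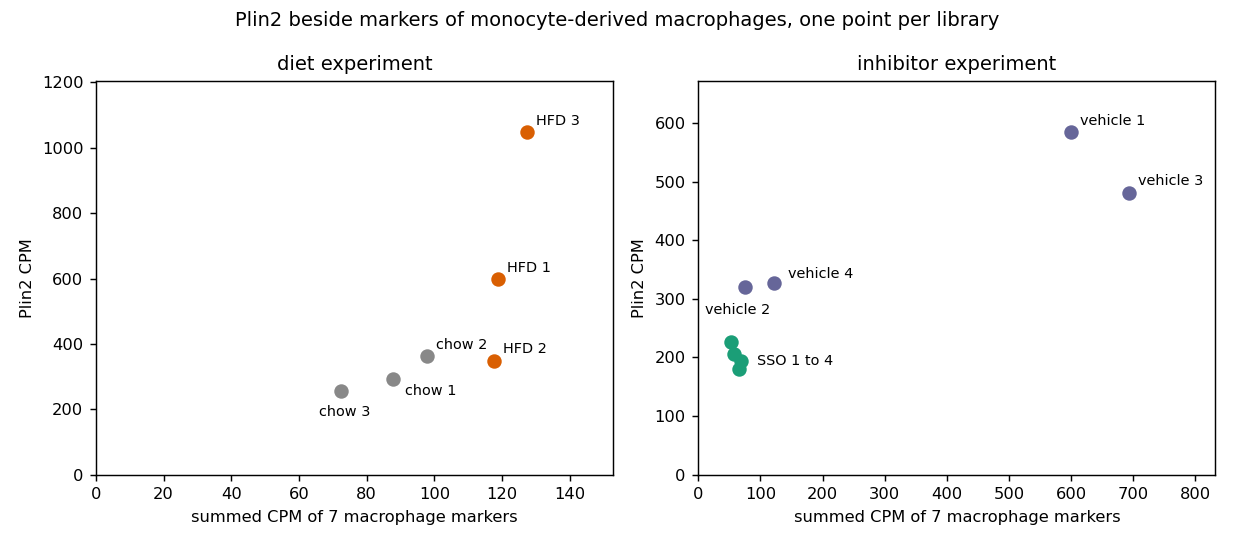
Plin2 (y axis, CPM) against the summed CPM of 7 markers of monocyte-derived macrophages (x axis), one point per library, with the diet experiment on the left and the inhibitor experiment on the right. Vehicle 1 and 3, at 600 and 693 CPM of markers, lie apart at the upper right of the right panel.

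Stellate cells, which store retinoid in lipid droplets, were present by 6 markers, which summed to 302 to 316 CPM (chow) and 249.7 to 273 CPM (HFD). Fat cells and skeletal muscle were near absent by their defining markers. Adipoq, Lep and Retn, secreted by white fat cells, had 0 counts in every library. Plin1, the perilipin of fat cells (ENSMUSG00000030546), had 0 counts but for 4 in SSO 1. The summed level of 8 fat cell markers was 12.4 to 14.2 CPM (chow), 7.69 to 13.6 CPM (HFD), 3.01 to 17.6 CPM (vehicle) and 27.6 to 51.3 CPM (SSO), and in SSO it was mostly Adrb3, at 26.1 CPM or more in each library. Adrb3 shares 24.9% of its exon length with a gene on the other strand, so its reads are uncertain. The sum of 5 skeletal muscle markers did not exceed 0.728 CPM.

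Plin3, which coats nascent droplets and is otherwise soluble in the cytosol, was the steadiest of the 4 perilipins in chow and HFD. It lies at chr17:56277476-56292873, minus strand (ENSMUSG00000024197). It stood at 35.7, 36.0 and 41.0 CPM in chow and 47.6, 38.9 and 43.7 CPM in HFD, with HFD 2 inside the chow range. The log2 fold change was 0.21 ± 0.13 (SE), adjusted p 0.503 in edgeR, and the 95% interval of -0.08 to 0.50 leaves out any change as large as the fitted one of Plin2. With SSO it was 41.2, 45.9, 34.8 and 36.1 CPM against 55.5, 35.2, 37.3 and 42.6 CPM in vehicle; the groups overlapped at -0.11 ± 0.17 (SE), adjusted p 0.741 in edgeR, and the value was 0.039 without vehicle 1.

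Plin4 and Plin5 are neighbours: Plin4 at chr17:56100591-56109803 (ENSMUSG00000002831) ends 1797 bases from Plin5 at chr17:56111601-56117596 (ENSMUSG00000011305), both on the minus strand, and Plin3 lies 160 kb further on. Plin4 binds small droplets and is best known from fat and muscle cells. It stood at 5.44, 16.5 and 12.6 CPM in chow and at 3.28, 4.14 and 17.4 CPM in HFD. HFD 3 was the highest of the 6 and HFD 1 and 2 the lowest, and the log2 fold change of -0.47 ± 0.74 (SE; 95% interval -2.28 to 1.33; adjusted p 0.830 in edgeR) ranged from -1.63 (without HFD 3) to -0.093 (without HFD 1) with 1 library left out. In vehicle it was 5.02, 8.99, 7.29 and 14.3 CPM and in SSO 10.8, 11.6, 8.84 and 11.7 CPM, so that all SSO libraries lay inside the vehicle range. Its fit gave 0.27 ± 0.30 (SE), adjusted p 0.629 in edgeR, with 0.073 without vehicle 1, 0.61 without vehicle 4 and -0.12 without vehicle 1 and 3.

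Plin5, which tethers droplets to mitochondria and is prominent in tissues that burn fat, stood at 46.6, 57.4 and 43.9 CPM in chow and 33.6, 27.8 and 56.7 CPM in HFD. HFD 1 and 2 lay below all chow libraries and HFD 3 beside the highest of them, with a log2 fold change of -0.32 ± 0.26 (SE; 95% interval -0.91 to 0.26) and an adjusted p of 0.614 in edgeR. It was -0.68 without HFD 3 (adjusted p 0.182 in edgeR) and -0.13 without HFD 2. Vehicle libraries held 31.3, 25.5, 20.4 and 61.8 CPM and SSO libraries 39.7, 44.4, 43.1 and 37.4 CPM. The SSO values were close together and all lay between vehicle 1 and vehicle 4. The log2 fold change was 0.24 ± 0.30 (SE), adjusted p 0.666 in edgeR; without vehicle 4 it was 0.69, with an adjusted p of 0.0735, without vehicle 3 it was 0.062 and without vehicle 1 and 3 it was -0.091.

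Among the fusion proteins only traces of Cidea were found. Cidea (ENSMUSG00000024526, chromosome 18), known from brown fat and from fatty liver, had 6 counts in HFD 1 (0.165 CPM) and 20 in HFD 3 (0.591 CPM) and 0 in the other 12 liver libraries. Where no read was counted, up to 3 counts remain possible, that is 0.0770 to 0.0922 CPM in the diet libraries and 0.0817 to 0.136 CPM in the inhibitor libraries. HFD 2, the library with the lowest Plin2 of its group, was among those at 0. When the filter on low counts was dropped, edgeR gave Cidea an adjusted p of 0.129 for HFD against chow.

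Cideb, the family member of normal hepatocytes, acts in droplet fusion and in loading lipid onto very low density lipoprotein. It lies at chr14:55754050-55758458, minus strand (ENSMUSG00000022219). It stood at 28.6, 30.2 and 25.3 CPM in chow and 23.5, 24.9 and 24.6 CPM in HFD. Every HFD library lay below every chow library, as 10.8% of tested genes did, by a log2 fold change of -0.20 ± 0.12 (SE; 95% interval -0.48 to 0.07) with an adjusted p of 0.491 in edgeR. In vehicle it was 18.0, 25.3, 10.6 and 25.02 CPM and in SSO 19.8, 20.1, 24.96 and 19.3 CPM, with overlap; the fit gave 0.10 ± 0.25 (SE), adjusted p 0.858 in edgeR, and -0.26 without vehicle 1 and 3. Of its exon length, 76.3% is shared with Nop9 on the other strand, and whether the counting used strand is not stated, so the level of Cideb is uncertain throughout.

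Cidec (Fsp27), which forms the large single droplet of white fat cells and is a known PPARG target in fatty liver, lies at chr6:113424634-113435760, minus strand (ENSMUSG00000030278). Its level was 3.39, 7.01 and 4.33 CPM in chow and 3.83, 2.15 and 12.8 CPM in HFD. HFD 3 was the highest of the 6 libraries and HFD 2 the lowest, so the sign rested on HFD 3: the log2 fold change was 0.35 ± 0.65 (SE; adjusted p 0.863 in edgeR) and -0.71 without it. Vehicle libraries held 3.93, 3.31, 5.01 and 4.18 CPM and SSO libraries 2.41, 3.20, 2.35 and 3.61 CPM. SSO 1, 2 and 3 lay below all vehicle libraries and SSO 4 among them, at a log2 fold change of -0.51 ± 0.29 (SE; 95% interval -1.15 to 0.14) and an adjusted p of 0.347 in edgeR.

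G0s2, a small protein that binds and blocks the lipase Pnpla2, lies at chr1:193272161-193273217, minus strand (ENSMUSG00000009633). It stood at 37.2, 105 and 45.7 CPM in chow and 33.8, 18.3 and 56.7 CPM in HFD. Chow 2 was far above the rest and HFD 3 above the other two chow libraries, so the groups overlapped at a log2 fold change of -0.79 ± 0.54 (SE; 95% interval -2.12 to 0.54; adjusted p 0.572 in edgeR). It was -0.19 without chow 2 and -1.26 without HFD 3. In vehicle it was 61.6, 86.4, 63.5 and 123 CPM and in SSO 82.2, 113, 89.2 and 108 CPM. The 2 vehicle libraries with the most Plin2, vehicle 1 and 3, had the least G0s2 of all 8, and the fit gave 0.23 ± 0.23 (SE), adjusted p 0.599 in edgeR. It was 0.11 without vehicle 1, 0.49 without vehicle 4 and -0.094 without vehicle 1 and 3. Pnpla2 itself, the lipase that G0s2 and Hilpda inhibit, had a log2 fold change of -0.49 for HFD (adjusted p 0.391 in edgeR) and -0.07 for SSO (adjusted p 0.827 in edgeR).

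Hilpda, a hypoxia-inducible inhibitor of the same lipase, lies at chr6:29272488-29275446, plus strand (ENSMUSG00000043421). Its level was low, at 2.00, 1.81 and 1.75 CPM in chow and 2.92, 3.38 and 3.63 CPM in HFD. All HFD libraries lay above all chow libraries, as 11.2% of tested genes did, and in contrast to Plin2 the values within each group were close. The mean of 3.31 ± 0.361 CPM (SD, n = 3) was 1.79 times the chow mean of 1.85 ± 0.132 CPM (SD, n = 3). The log2 fold change was 0.84 ± 0.26 (SE; 95% interval 0.25 to 1.42) with an adjusted p of 0.160 in edgeR, from 0.0616 to 0.419 over the alternatives. In the inhibitor experiment the vehicle libraries ranged 8.61-fold, with 3.47, 0.635, 5.47 and 2.23 CPM, and the SSO libraries held 1.34, 1.71, 1.68 and 2.50 CPM. SSO lay inside the vehicle range; the log2 fold change of -0.71 ± 0.55 (SE; adjusted p 0.480 in edgeR) was -0.22 without vehicle 3 and turned to 0.32 without vehicle 1 and 3, the libraries with the most Hilpda and the most macrophage markers.

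Fitm2, an endoplasmic reticulum protein needed for droplets to bud towards the cytosol, lies at chr2:163466379-163472629, minus strand (ENSMUSG00000048486), and shares 5.72% of its exon length with 2310001K24Rik on the other strand. It stood at 31.8, 63.4 and 40.9 CPM in chow and 40.9, 29.3 and 62.8 CPM in HFD. The same spread was seen in both groups, and the log2 fold change of -0.03 ± 0.34 (SE; 95% interval -0.83 to 0.76; adjusted p 0.981 in edgeR) was 0.12 with library size alone as the scaling. Vehicle libraries held 41.1, 22.7, 24.7 and 37.8 CPM and SSO libraries 29.6, 21.6, 24.2 and 20.9 CPM. SSO 2 and SSO 4 lay below all vehicle libraries, and the fit gave -0.39 ± 0.22 (SE; 95% interval -0.87 to 0.09), adjusted p 0.332 in edgeR.

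**Figure D3:**
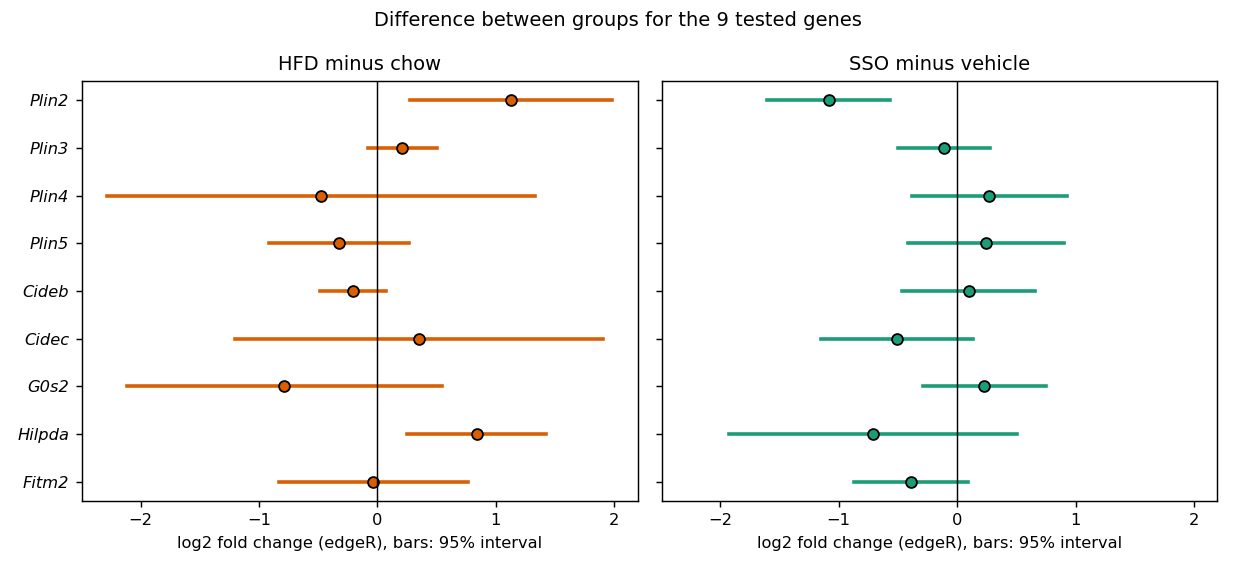
Log2 fold change (points) with its 95% interval (bars) from edgeR for the 9 tested genes, HFD minus chow on the left (3 against 3 libraries) and SSO minus vehicle on the right (4 against 4). The interval of Plin2 leaves out 0 in both panels, above it for HFD and below it for SSO, and that of Hilpda in the left panel; no adjusted p was under 0.05.

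Because Plin2 and Hilpda had the smallest unadjusted p of the members in the diet experiment, the sequence around their starts is shown, from 250 bases before to 50 bases after the start, as RefSeq gives it on GRCm38.p6. Motifs were searched on both strands: AGGTCA (the core site of nuclear receptors), the longer direct repeat 1 element bound by PPAR with RXR (a pair of such core sites in which a base may vary), ACGTG and GCGTG (cores of the hypoxia response element) and CACGTG (the E-box, which always holds ACGTG on each strand). Capitals mark every match, on either strand, and positions count from the start base as 0 to the leftmost base of the match. The first line is Plin2, chr4:86670010-86670309, minus strand, and the second is Hilpda, chr6:29272376-29272675, plus strand, the second of its 2 windows.
Plin2: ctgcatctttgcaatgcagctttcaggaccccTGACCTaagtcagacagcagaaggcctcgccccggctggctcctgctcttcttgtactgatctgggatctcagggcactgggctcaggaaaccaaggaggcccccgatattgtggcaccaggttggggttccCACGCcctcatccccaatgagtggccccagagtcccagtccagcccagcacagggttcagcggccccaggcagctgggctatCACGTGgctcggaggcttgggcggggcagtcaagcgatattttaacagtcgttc
Hilpda: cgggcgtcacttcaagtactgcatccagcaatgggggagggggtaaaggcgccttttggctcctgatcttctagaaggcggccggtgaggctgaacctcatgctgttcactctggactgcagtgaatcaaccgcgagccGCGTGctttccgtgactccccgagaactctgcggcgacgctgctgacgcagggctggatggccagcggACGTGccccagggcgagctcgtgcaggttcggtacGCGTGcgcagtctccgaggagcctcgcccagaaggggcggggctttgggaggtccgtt
The Plin2 window holds the core receptor site at -218 and GCGTG at -86, both read on the other strand, and the E-box at -4. The Hilpda window, shown because it holds more matches, has GCGTG at -111 and -8 and ACGTG at -43. Its other window, from the start that matches the gene start given above, has GCGTG at 27 and no other match. Of the 9 members searched (Cidea was not used here), 2 hold AGGTCA (Plin2 and Plin5), 2 hold ACGTG (Plin2 and Hilpda), 7 hold GCGTG, 1 holds the E-box (Plin2) and 0 hold the direct repeat in any window. Among 32851 windows of all genes, AGGTCA is in 16.3%, ACGTG in 19.6%, GCGTG in 32.4%, CACGTG in 7.15% and the direct repeat in 0.381%. These shares are per window, while Plin5, Cidec and Hilpda have 2 windows each and were counted when either held the motif. The counts of members and the shares are therefore not like measures. A match describes letters only and shows no binding.

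Compared per length, Plin2, G0s2, Plin5 and Cideb were the highest 4 members in every group, and the order of the low members differed in each. Levels here are RPKM, that is CPM divided by the kilobases of exon. In chow Plin2 (86.5, range 72.8 to 103) and G0s2 (71.9, range 42.7 to 120) overlapped and stood above Plin5 at 23.6 and Cideb at 18.8, with Fitm2 at 11.4 and Plin3 at 9.92 next and overlapping. Cidec at 2.65, Plin4 at 1.99 and Hilpda at 1.68 were low, each overlapping its neighbour in the order. In HFD Plin2 at 189 (range 99.4 to 298) lay clear of G0s2 at 41.7 (range 21.1 to 65.1), and Hilpda at 3.00 came before Plin4 at 1.43, with overlap.

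In vehicle Plin2 at 122 (range 91.3 to 166) again led G0s2 at 95.9 (range 70.7 to 141), with overlap. In SSO the order was the other way, G0s2 at 112 RPKM (range 94.4 to 129) over Plin2 at 57.4 (range 51.4 to 64.4), without overlap. These overlaps depend on gene length. With the longest transcript in place of all exons, Plin2 in SSO ranged from 95.6 to 120 RPKM and overlapped G0s2, while in chow (135 to 192 RPKM) and in vehicle (169.8 to 309 RPKM) it lay above G0s2 without overlap. By the length of all exons Plin5 (19.7), Cideb (14.1), Plin3 (10.4) and Fitm2 (6.06) followed in SSO, none overlapping the next. Plin4, Hilpda and Cidec stood between 1.56 and 1.86 and overlapped. With the longest transcript Cideb (15.9 to 20.6 RPKM) and Plin5 (18.8 to 22.3 RPKM) overlapped in SSO. In HFD the mean of Cideb was then 20.1 RPKM, above Plin5 at 19.8.

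The make-up of the summed level of the 10 genes was computed after the values were seen, and is given without a test. Plin2 took 33.8% to 44.0% of the summed RPKM in chow and 57.4% to 66.5% in HFD, without overlap. G0s2 took 22.5% to 39.5% in chow and 12.2% to 14.5% in HFD. In the inhibitor experiment Plin2 took 30.2% to 56.3% in vehicle and 21.6% to 28.8% in SSO, and G0s2 24.0% to 45.7% and 45.3% to 54.3%. Vehicle 4, with 30.2% Plin2 and 45.7% G0s2, lay nearest to SSO. Since the shares add to 100%, a higher share of one gene lowers those of the others. The shares also rest on the length of all exons, which is 3512 bases for Plin2, while its longest transcript has 1888. With the longest transcript as length the shares of Plin2 would be larger in every group, and they were not computed.

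**Figure D4:**
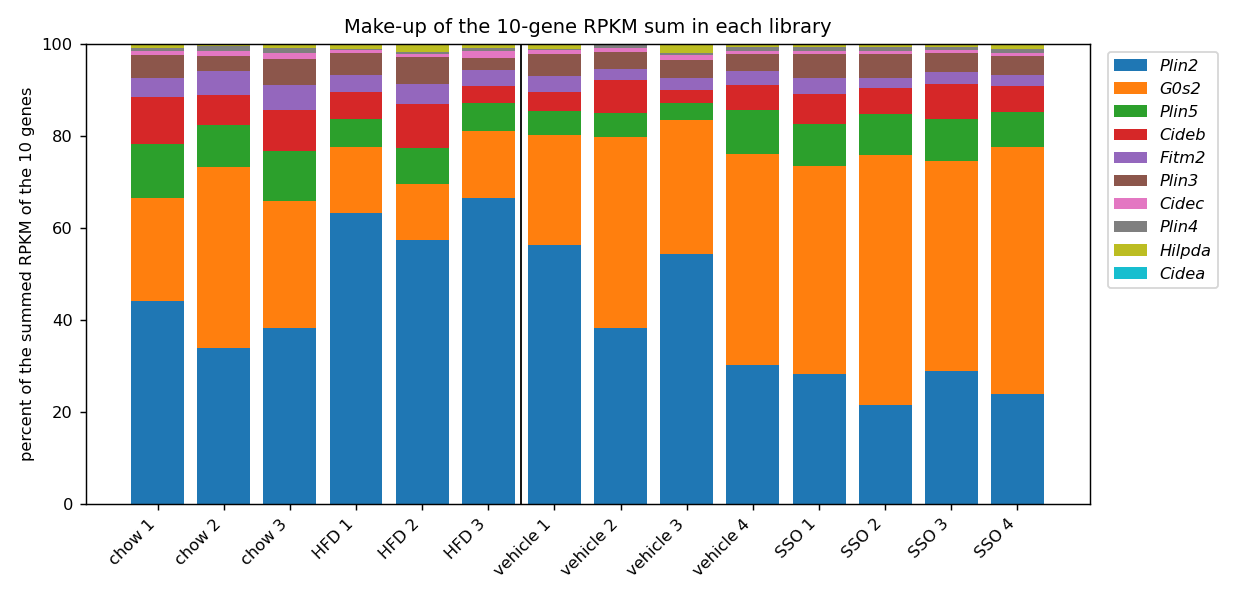
Share (percent, y axis) of each gene in the summed RPKM of the 10 genes, one bar per library, with RPKM from the length of all exons. The vertical line parts the diet from the inhibitor experiment. Plin2 takes 57.4% to 66.5% in the 3 HFD bars and 21.6% to 28.8% in the 4 SSO bars.

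In the diet experiment, 1 library of each group was the highest for most members. HFD 3 was the highest of the HFD libraries for 7 of the 9 tested members, while 35.7% of all tested genes were highest there, and HFD 2 was the lowest for 6 of 9, beside 34.2% of genes. Chow 2 was the highest chow library for 7 of 9, beside 30.5%. The coefficient of variation was larger in HFD than in chow for 7 of 9 members, all but Cideb and G0s2, while it was larger in HFD for 33.5% of all tested genes. For Plin2 it was 53.2% in HFD and 17.8% in chow. In the inhibitor experiment it was larger in vehicle than in SSO for 8 of 9 members, all but Cidec. The same held for 76.9% of all tested genes, so by this measure the members went much as other genes did. There, no library was the highest of its group for more than 3 of 9 members. Vehicle 2 was the lowest vehicle library for 5 of 9 (Plin2, Plin3, Cidec, Hilpda and Fitm2), beside 33.7% of all tested genes. These counts have no test, since libraries share their depth and quality across genes.

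The genes whose levels went most closely with Plin2 were named by Pearson's r of log2 CPM over the 14 liver libraries, each experiment centred on its own mean, among 8013 genes of at least 3 log2 CPM in mean. They were Nup62 (r 0.92), Ndc1 (0.90), both nuclear pore genes, and Dnajb1 (0.90), a heat shock co-chaperone. Nup62 shares some exon length with neighbouring genes. Among the members, Cidec had an r of 0.63 with Plin2, Fitm2 0.58 and Hilpda 0.53, while G0s2 had -0.14, being 0.14 in the diet libraries and -0.72 in the inhibitor libraries. Nearest to Cidec were Angptl4 (0.85), a secreted inhibitor of lipoprotein lipase, Slc27a1 (0.78), a fatty acid transporter, and Rtf2 (0.77), which had 0.91 in the diet libraries but 0.04 in the inhibitor libraries. The libraries share group differences, depth and quality, so these values are descriptions with no test.

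The genes that surround the members in droplet biology were counted from 7 lists, and few passed the test. In the diet experiment no gene of 5 lists was called: triglyceride synthesis and droplet formation (0 of 21), lipolysis and lipophagy (0 of 12), PPARA targets (0 of 18), hypoxia response (0 of 16) and transcription factors with targets among the members (0 of 10). At an unadjusted p under 0.05 in edgeR stood 3, 1, 2, 4 and 1 of them, beside 15% of all tested genes. Of the 16 hypoxia genes 5 had a log2 fold change above 0 and 11 below 0, beside 7373 and 8216 of all 15589 tested genes. In the 5 lists, in the order given, 3, 0, 0, 4 and 1 genes lay wholly lower in HFD, as 10.8% of tested genes did. Wholly higher lay 0, 1, 0, 0 and 0, as 11.2% did. Among 18 other droplet surface proteins 2 fell, with 0.718% of all genes called lower. Of these 18 genes 5 lay wholly lower in HFD and 1 wholly higher, beside the same 10.8% and 11.2%. An unadjusted p under 0.05 in edgeR was found for 5 of them, beside 15%. Sqle, squalene epoxidase, fell from 56.6 to 112 CPM in chow to 13.5 to 28.1 in HFD (log2 fold change -1.95, adjusted p 0.0439 in edgeR). Lss, lanosterol synthase, fell from 54.7 to 69.1 CPM to 21.2 to 30.6 (-1.31, adjusted p 0.00642 in edgeR). Both are enzymes of sterol synthesis found at droplets and not coat proteins. Of 8 tested genes of the PPARG and lipid uptake list 1 rose, with 1.6% of all genes called higher: Lpl, lipoprotein lipase, from 29.6 to 43.4 CPM to 54.6 to 76.0 (0.93, adjusted p 0.0392 in edgeR). Of these 8 genes 1 lay wholly lower in HFD and 1 wholly higher, and 2 had an unadjusted p under 0.05 in edgeR, beside the same shares of all genes. Leaving out 1 library at a time kept the call of Lss in 6 of 6 fits and those of Sqle and Lpl in 1 of 6 each; Sqle was also not called with library size alone, without the filter on low counts or with the replicate block.

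With SSO, 4 genes of the lists rose, with 0.317% of all genes called higher. More genes had an unadjusted p under 0.05 in edgeR, as 20.5% of all tested genes did. They were 7 of 21 in triglyceride synthesis, 6 of 12 in lipolysis, 5 of 18 droplet surface genes and 4 of 9 in the PPARG and lipid uptake list. In these lists 6, 4, 5 and 2 genes lay wholly higher in SSO, as 6.14% of genes did. Wholly lower lay 0, 1, 0 and 1, as 5.62% did. Gpam, the first enzyme of triglyceride synthesis, rose as 1 of 21 genes of its list, from 109 to 194 CPM in vehicle to 462 to 586 in SSO (1.68, adjusted p 0.0196 in edgeR). Pnpla3, a droplet-bound lipase and transacylase, rose as 1 of 12 of the lipolysis list, from 0.925 to 4.95 CPM to 41.1 to 74.2 (4.34, adjusted p 0.0181 in edgeR). The sterol enzymes Nsdhl (1.40, adjusted p 0.0181 in edgeR) and Lss (1.24, adjusted p 0.0459 in edgeR) rose as 2 of 18 droplet surface genes, while Sqle stood at 0.81 with an adjusted p of 0.131 in edgeR. Cd36, the fatty acid receptor, fell as 1 of 9 genes of the PPARG and lipid uptake list, with 0.133% of all genes called lower, from 72.4 to 101.5 CPM to 32.2 to 41.1 (-1.28, adjusted p 0.0196 in edgeR). These 5 calls were all lost without vehicle 1 and without any 1 SSO library. Those fits called 0 of all tested genes, so the loss was not particular to these 5. With 1 library left out, the adjusted p in edgeR was up to 0.103 for 4 of them and 0.189 for Lss. The call of Lss was also lost without vehicle 3, with library size alone and with the replicate block. That of Pnpla3 was lost without vehicle 1 and 3 together.

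None of the 18 PPARA targets was called with SSO. Of them 14 had a log2 fold change below 0, as 8368 of all 15788 tested genes did. Their median was -0.21, beside -0.04 over all tested genes. An unadjusted p under 0.05 in edgeR was found for 4 of them, as for 20.5% of all tested genes. The 17 hypoxia genes (median -0.20) and the 10 transcription factors (median -0.05) gave 0 calls too. At an unadjusted p under 0.05 in edgeR stood 7 and 1 of them, beside the same 20.5%. The receptors for which several members are known targets had log2 fold changes near or below 0. Ppara, the fasting receptor of hepatocytes, had -0.01 for HFD (adjusted p 0.995 in edgeR) and -0.03 for SSO (adjusted p 0.955 in edgeR). Pparg, which drives Cidec and Cidea in fatty liver, had -0.48 for HFD (adjusted p 0.543 in edgeR) and -0.59 for SSO (adjusted p 0.462 in edgeR), with 2.86 to 16.8 CPM in vehicle and 5.42 to 7.99 in SSO.

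**Figure D5:**
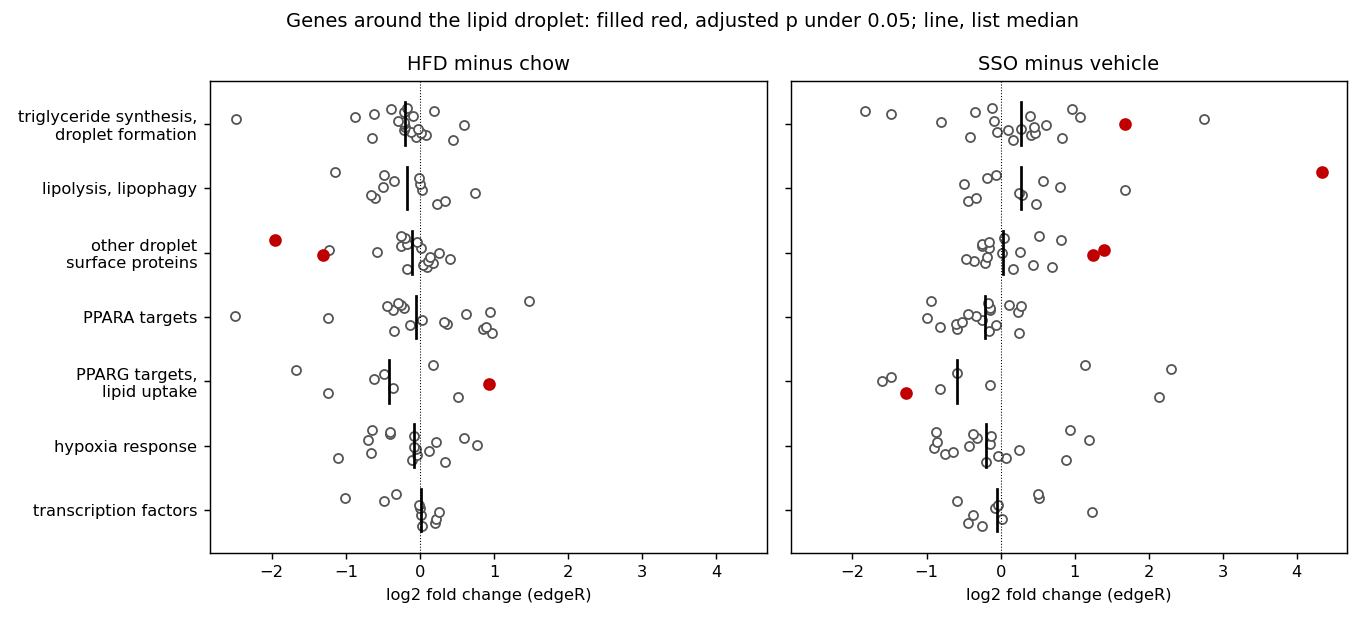
Log2 fold change (x axis) of each tested gene of 7 lists around the lipid droplet (rows), HFD minus chow on the left and SSO minus vehicle on the right; filled red points had an adjusted p under 0.05 in edgeR and the vertical bar is the median of the list. In the left panel Sqle and Lss lie below 0 and Lpl above it, and in the right panel Gpam, Pnpla3, Nsdhl and Lss lie above 0 and Cd36 below it.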

How the data were processed

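The files hold read counts per Ensembl gene, deposited by the authors without scaling. The tools listed in the submitters' processing notes are HISAT2 2.2.1, featureCounts 2.0.2, Trim Galore 0.6.1 and DESeq2, with the build GRCm38 (mm10); mRNA was purified with polyT, per the labels' protocols. How strand and multiply mapped reads were treated, and with which annotation, is not given in the sources used here. Symbols, coordinates (1-based) and exon lengths came from GENCODE M21, which matched 55227 of 55487 identifiers.

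Columns were assigned to groups by their names, control columns by their table, and treated as replicate livers. For the inhibitor libraries no source names separate animals, and their p-values cover the spread between libraries, which may be technical. No pair of libraries agreed within sampling noise. Each table was fitted on its own with edgeR 4.0.16 in R 4.3.3 (quasi-likelihood test, robust spread, TMM, filterByExpr), adjusted by Benjamini-Hochberg over all tested genes with a threshold of 0.05, after a check on simulated counts. Counts of 0 were given a limit of 3 counts, which covers counting error only. Log2 CPM used a prior count of 2. Alternatives were DESeq2 1.42.0, limma 3.58.1 (voom), DESeq2 size factors, library size alone, no mitochondrial transcripts, no filter, a replicate block, and leaving libraries out.

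The members, lists and tests were chosen with earlier results of these data known. The text names every member, up to 4 called genes of each list by smallest p, Plin1, Pparg, Ppara and Pnpla2, the 3 genes most like Plin2 and Cidec, and markers whose level moved with a result.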

Additional observations from a re-analysis of the deposited data

Results flagged for a closer look

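Cideb in SSO 3 stood at 24.96 CPM, away from the other 3 SSO libraries at 19.3 to 20.1 CPM: its gap to the nearest of them was 0.868 of the range of the group, above Dixon's critical value at the 95% level. Of 18 groups of 4 libraries looked at in this way it was the 1 that passed, and chance alone passes about 1 in 20. The other members gave no such value in vehicle or SSO, and the diet groups of 3 libraries were not looked at.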

How the results depend on the processing

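Over the 18 member comparisons and 261 alternatives, 242 kept their sign and their side of the threshold, 5 became calls, each of them Plin2, and 14 changed sign, none of them past the threshold; where no cause is given below, it was not tested. Called members numbered 1 with DESeq2 in each experiment, 1 without the low count filter in the inhibitor experiment, and 0 to 1 there when 1 library was left out. Called genes numbered, for HFD, 672 without the filter, 926 with DESeq2, 206 with the replicate block and 86 to 681 with 1 library left out. For SSO they numbered 37 with library size alone, 205 without the filter, 1218 with DESeq2, 47 with the replicate block and 0 to 2646 with 1 library left out; the count was 0 without vehicle 1 and without any 1 SSO library, while 2068 to 2658 genes then had an unadjusted p under 0.05 in edgeR, and 2646 without vehicle 2.

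Signs changed for Fitm2 in the diet experiment, at 0.12 with library size alone and, with 1 library left out, -0.37 to 0.29 (above 0 without chow 2, 0.29, HFD 1, 0.020, or HFD 2, 0.19), and for Cidec, at -0.71 (without HFD 3) to 0.76. In the inhibitor experiment they changed for Cideb at -0.0051 with library size alone, and leaving out 1 library gave Cideb -0.11 (without vehicle 3) to 0.24 and Plin3 -0.19 to 0.039 (without vehicle 1). Without vehicle 1 and 3 together they changed for Plin3 (0.021), Plin4 (-0.12), Plin5 (-0.091), Cideb (-0.26), G0s2 (-0.094) and Hilpda (0.32). Library size alone moved the median log2 fold change of all genes by 0.15 for HFD and -0.16 for SSO.

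The replicate block called 0 members in each experiment. Libraries with the same number share only that number: their deviations correlated at -0.11 to 0.03, and 0 of 3 numbers in the diet and 1 of 4 in the inhibitor experiment matched best with themselves. With the longest transcript as length, mean RPKM of Plin2 became 161 in chow, 352 in HFD, 227 in vehicle and 107 in SSO. Depth limits Cidea, which had 0 counts in 12 of 14 libraries, and 3 or 4 libraries per group limit the rest.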
